A study of Drosophila melanogaster with 48 samples.

Results

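Of the 13946 protein-coding genes in the gene table, 9 neuronal genes were followed through 10 lists of open chromatin regions in cultured Drosophila cells. The genes were elav, Syt1, nSyb, brp, Dscam1, para, Rbfox1, SerT and VGlut. A region was counted for a gene when its summit, the position of its strongest signal, lay in the gene body or within 5 kb of it in the dm6 genome. After overlapping regions of all lists were joined, 241 of 82962 regions belonged to the 9 genes. The genes were chosen by the presence of their regions in these same lists, either in every list or in those of 1 factor. Those patterns are therefore given as a description, without a test.

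Neurons fire action potentials through voltage-gated sodium channels. They release transmitter when calcium triggers the fusion of synaptic vesicles at active zones. Many genes of this machinery are silent outside the nervous system, and accessible DNA at such a gene can mark a promoter, an enhancer or a neighbouring gene. S2 cells are not neurons: the line behaves much like hemocytes, the insect blood cells.

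ATAC-seq, which reads out where a transposase can insert into chromatin, was run on 48 libraries at a time point of 48 h. CuSO4 was added to all groups except those at 0 uM in the titrations. Copper switched on a transgene in S2 cells: full-length Grainyhead (Grh, an epidermal regulator), Zelda (Zld, an activator of the early zygotic genome) or Twist (Twi, a mesoderm regulator), or a DNA-binding domain (DBD) alone, taken from Grh or Zld. In the main experiments, S2-Grh cells at 100 uM, S2-Zld cells at 1000 uM, S2-Twi cells at 40 uM, S2-Grh-DBD cells at 20 uM and S2-Zld-DBD cells at 100 uM each stood beside S2-WT cells at the same dose. In the titrations, S2-Grh cells received 0, 25, 100 and 400 uM, S2-Zld cells 0, 500, 1000 and 1500 uM, and S2-HA-Twi cells 0, 10, 40 and 160 uM. The S2-Grh-DBD titration cells received 80 uM and the S2-Zld-DBD titration cells 400 uM. Each group had 2 libraries, and the labels do not say whether these were separate cultures.

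Every full-length list and both main DBD lists pool such groups. A main list joins factor and wild-type cells. A titration list of a full-length factor joins every dose, with cells at 0 uM among them. No list is labelled as that of 1 library, so there is no replicate value, the depth per library is unknown, and a region of a factor's list need not depend on that factor. Copper doses of 500 uM and above occur only in the Zld experiments, so an effect of Zld and one of high copper cannot be told apart. The lists held 25397 (HA-Twi titration) to 71754 (Twi main) regions. Fold enrichment, the authors' measure of a peak over background, is used here to describe regions within a list and was not compared across lists by a test. As a check of the cell label, 8 of 8 hemocyte markers (srp, Hml, Pxn, He, NimC1, crq, Pvr and ush) had a region of every list in their windows, but so did 5 of 5 glial markers and 8 of the 9 neuronal genes, so window counts of this kind do not separate cell types.

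Of the 9 genes, 8 had at least 1 region found in all 10 lists, and VGlut had none. Over all protein-coding genes the share was 80.5%, so the count for the neuronal genes lies near the background. The 8 genes held 45 such regions, which is 18.7% of their 241 regions, beside 20.5% of the regions of the whole genome. A region of every list lay inside the gene body of 5 of the 9 genes (elav, brp, Dscam1, para and Rbfox1), beside 31.8% of all protein-coding genes. Among genes of 20 kb or more the background was 71.7%, beside 4 of the 5 neuronal genes of that length. Of the 45 regions, 24 lay inside the gene and 21 outside it. Of these 21, 15 were closer to an end of another gene, and 11 of them lay within 500 bp of that end.

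**Figure D1:**
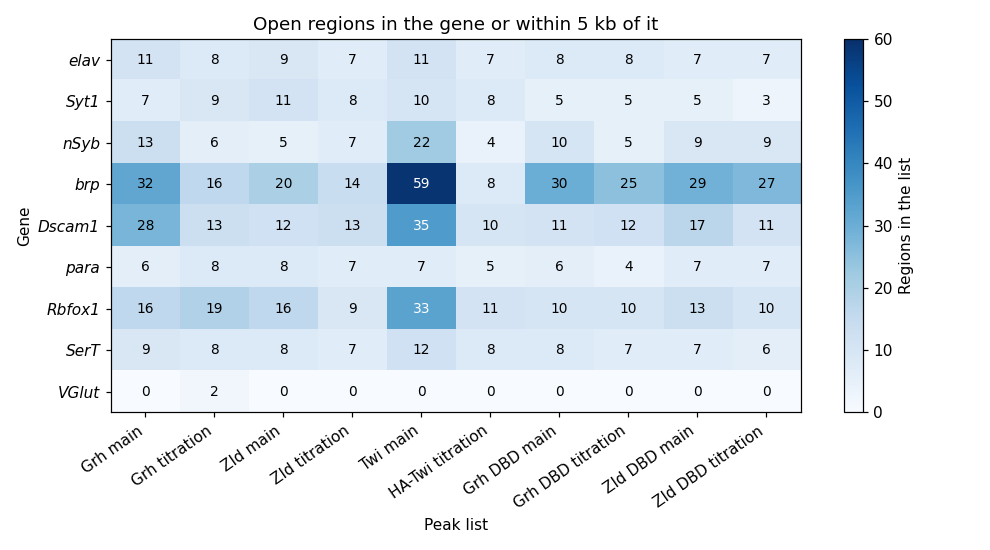
Number of open regions in each of the 10 peak lists (columns) at each of the 9 neuronal genes (rows), counted in the gene and 5 kb around it. brp runs from 8 regions in the HA-Twi titration list to 59 in the Twi main list, and VGlut has 2 regions, both in the Grh titration list.

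Among the RNA-binding proteins, elav encodes the pan-neuronal protein that controls splicing and 3' end choice and is the standard marker of neurons. Its gene (X:509235-523226) held 12 regions, of which 7 were in every list. The strongest, at X:522263-522839, lay inside the gene 682 bp from its high-coordinate end, with a fold enrichment of 15.1 at the lowest, a median of 19.7 and 23.6 at the highest over the 10 lists. A second strong region, at X:523179-523438, lay 109 bp beyond that end (11.2 to 17.0). At the opposite end a region at X:509106-509756 had a summit 102 bp inside the gene and ranged from 3.61 in the Twi main list to 18.9 in the HA-Twi titration list. The arginase gene arg (X:509435-528028) overlaps nearly all of elav, and 6 of the 7 summits also lay inside arg.

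Rbfox1 encodes a splicing regulator of neurons and muscle that also acts in the fly ovary. It is the longest of the 9 genes (3L:10481412-10594012, 113 kb) and held 41 regions, of which 9 were in every list. All 9 lay inside the gene, between 26.8 and 59.7 kb from its low-coordinate end, and all were over 500 bp from the end of any gene. The strongest, at 3L:10516360-10517054, had a fold enrichment of 9.99 at the lowest, a median of 14.0 and 21.1 at the highest. The other 32 regions were spread more widely, from 32 bp outside the low-coordinate end to 108004 bp inside the gene, and neither gene end had a region of every list.

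The synaptic genes differed among themselves. Syt1 encodes the calcium sensor of vesicle fusion, nSyb the vesicle SNARE and brp the Bruchpilot scaffold of the active zone. Syt1 (2L:2772327-2799979) had 4 regions of every list and none inside the gene body. The one closest to Syt1 stood at 2L:2772186-2772565, with a summit 22 bp outside the low-coordinate end and a fold enrichment between 3.09 and 8.95 (median 3.73). The strongest, at 2L:2804633-2805315 (10.8 to 22.4, median 16.4), was nearest to daw, the gene of a TGF-beta family ligand. The others stood 11 and 26 bp from ends of Taf10b and HINT1.

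Within Syt1, at 2L:2798934-2799136, a region was present in all 6 full-length lists and in none of the 4 DBD lists. It was weak, with fold enrichments between 1.64 and 3.60. A region at 2L:2802322-2802884, 2710 bp beyond the high-coordinate end, was in the 6 full-length lists and 1 DBD list (1.77 to 6.59). Over the 9 genes, 49 regions were in all 6 full-length lists and 45 in all 10. The other 4 were these 2 and a pair at brp that missed 1 DBD list each.

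nSyb (3L:1630348-1637752) held 27 regions, of which 3 were in every list. These 3 stood side by side at 3L:1639127-1639812, over 1.4 kb beyond the gene. They were nearest to Mettl2, and to Bgb, which encodes a partner of Runx proteins. The strongest of them had a median fold enrichment of 5.02, from 4.21 in the Zld DBD main list to 12.4 in the HA-Twi titration list. Inside nSyb lay 11 regions, none in every list. The most widespread of these, at 3L:1636859-1637233, was in 8 lists and reached a fold enrichment of 3.05.

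brp (2R:9503765-9541565) held 64 regions, more than 99.1% of all protein-coding genes, but only 6 were in every list. The strongest region stood inside the gene 1011 bp from its high-coordinate end, at 2R:9540396-9540694, with 12.5 at the lowest, a median of 15.4 and 23.5 at the highest. A region at 2R:9541627-9541953 lay 169 bp beyond the same end (3.39 to 6.60). Of the other 4, 1 lay 15775 bp from the low-coordinate end (median 2.15), 1 lay 652 bp inside the high-coordinate end (2.53), and 2 lay in the neighbouring CG1888 (2.40 and 3.57). Each of the remaining 58 regions was missing from at least 1 list, and none of them passed a fold enrichment of 4.92. The Twi main list had 59 regions there and the HA-Twi titration list 8, although both contain cells with Twi (HA-tagged in the titration). Of the 59, 53 were not in every list, with a median fold enrichment of 1.62, and 16 of these 53 reached a −log10 q of 10 in the authors' list. Weak regions of brp were not confined to the Twi lists, although most were in the Twi main list. Of 41 brp regions found in several but not all lists, 39 were in the Twi main list. At least 1 DBD list held 36 of the 41, and all 4 held 10. No share over the genome stands beside these counts or the 16 of 53, so they describe brp alone.

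**Figure D2:**
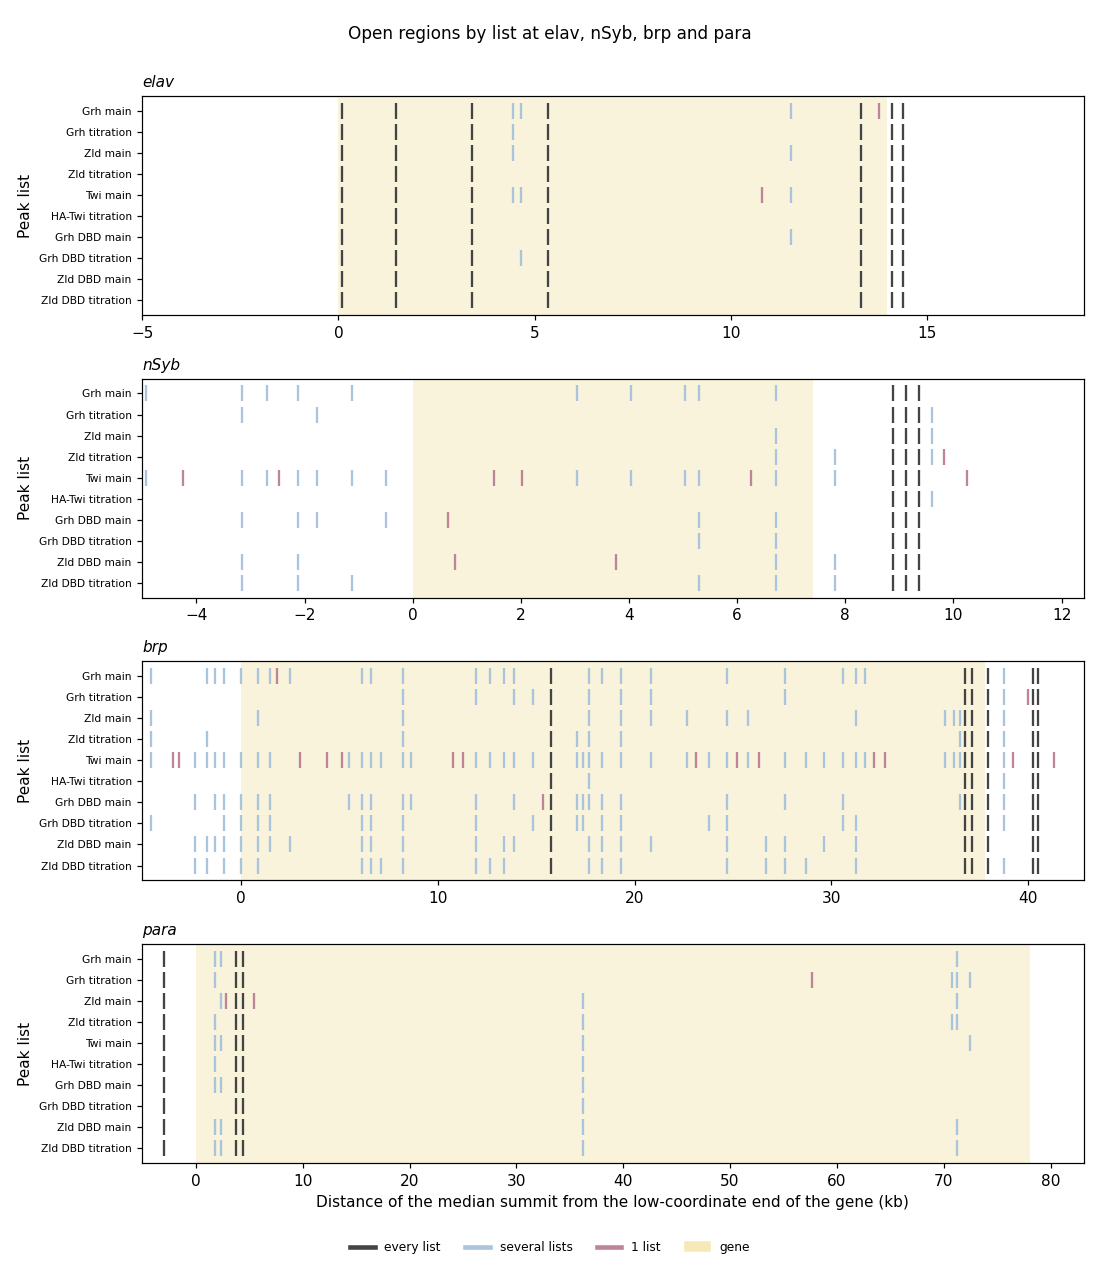
Open regions of elav, nSyb, brp and para in each list (rows), by distance of the median summit from the low-coordinate end of the gene in kb; shading marks the gene and colours mark regions of every list, several lists or 1 list. Dark marks of every list stand within and at both ends of elav, beyond nSyb, at 15.8 kb and around the high-coordinate end in brp, and on both sides of the low-coordinate end of para, up to 4.41 kb inside it.

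brp and nSyb had the densest regions of the 9 genes in the Twi main list. There brp had 12.3 regions per 10 kb of gene and flanks, higher than 94.3% of genes, and nSyb had 12.6, higher than 95.2%. The median of all genes in that list was 6.55. In the HA-Twi titration list brp had 1.67 regions per 10 kb and nSyb 2.30, against a median of 2.76, and only 33.2% and 42.5% of genes were lower. The Twi main list is the longest and has the lowest median fold enrichment of the 10 (1.76), and the part that its length plays in these counts was not tested. VGlut had 0 regions in the Twi main list, and para, Syt1 and Rbfox1 were also sparse there for their length. para had 0.795 regions per 10 kb in the Twi main list, with 5.27% of genes lower, Syt1 had 2.66, with 14.8% lower, and Rbfox1 had 2.69, with 15.0% lower.

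**Figure D3:**
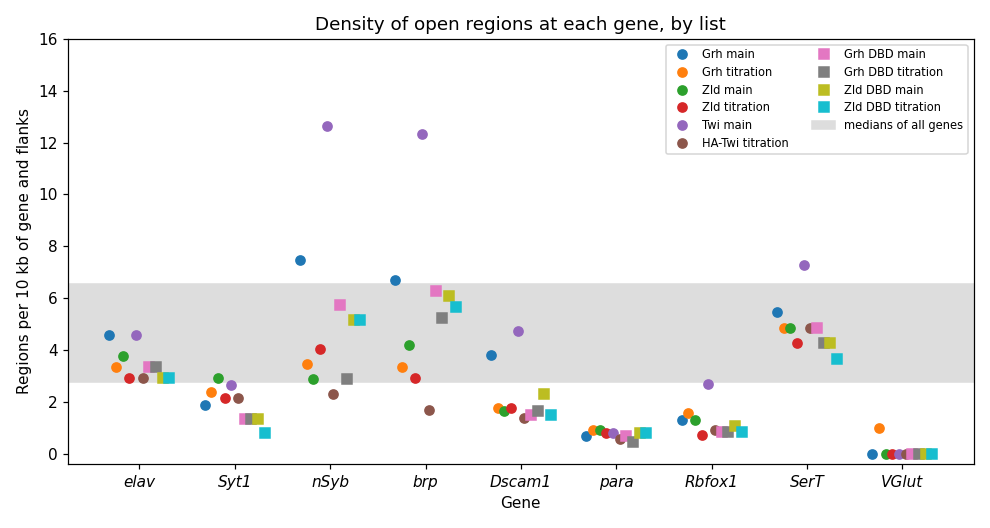
Regions per 10 kb of gene and flanks for each of the 9 genes, 1 point per list (circles full-length lists, squares DBD lists); the grey band spans the medians of all protein-coding genes over the lists, 2.76 to 6.55. brp and nSyb lie above the band at 12.3 and 12.6 in the Twi main list, and para, Rbfox1 and VGlut lie below it in every list.

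para encodes the voltage-gated sodium channel of fly neurons and is needed for action potentials. The gene (X:16455027-16533096) is 78.1 kb long but held only 12 regions, of which 3 were in every list. The region at X:16458637-16458889, 3740 bp inside the low-coordinate end, was among the strongest of any of the 9 genes, with 15.3 at the lowest, a median of 18.8 and 41.6 at the highest. A neighbour at X:16459214-16459532 ranged from 3.32 to 13.8. The third lay outside para, in eIF4H1, and was weak (1.84 to 5.13). A stretch of 30.7 kb within para had no region in any list.

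SerT and VGlut encode transporters, the first clearing serotonin from the synaptic cleft and the second loading glutamate into vesicles. VGlut (2L:2400295-2410662) had no region in 9 of the 10 lists, and at most 1 list had a region for 5.41% of all protein-coding genes. Its 2 regions, both in the Grh titration list and both beyond the high-coordinate end, stood at 2L:2411965-2412058 (fold enrichment 2.27) and 2L:2412917-2413217 (5.84). SerT (2R:24404595-24411074) had 6 regions of every list, none inside the gene and all nearest to ends of other genes. Of these, 5 lay on the low-coordinate side, over Rpn8, a proteasome subunit gene, and the kinase gene Slik. The strongest by median stood at 2R:24402255-24402541 (7.63 to 10.3, median 8.73).

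Regions of 1 factor were defined as present in the main and titration lists of that factor and in no full-length list of the other factors. The neuronal genes held 10 of them, all at SerT, Rbfox1 and Dscam1. Twi-only regions occurred at 3 genes (background 3.76%), Grh-only regions at 2 (9.05%) and Zld-only regions at 1 (4.22%). Any kind occurred at 3 of the 9 genes, against 15.4% of all protein-coding genes. The share differed with gene length, and the reason was not tested. Among genes of 20 kb or more it was 39.6%, beside 2 of the 5 neuronal genes, and among shorter genes 13.5%, beside 1 of 4. Since these regions were the reason for the choice, nothing is read from the counts. All 10 were also absent from all 4 DBD lists. The definition did not use these, but the genes were chosen with all 10 lists known. Absence was also the usual case over the genome, so nothing is read from it. Over the genome, 3.35% of 686 Grh-only, 8.78% of 319 Zld-only and 24.3% of 276 Twi-only regions were in at least 1 DBD list.

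The region at SerT was present in the Twi lists alone, at 2R:24411066-24411511. Its median summit lay 219 bp beyond the high-coordinate end of the gene. Fold enrichment was 6.81 in the Twi main list and 4.96 in the HA-Twi titration list, with a −log10 q of 277 and 42.6. Within the Twi main list it stood above 92.5% of regions and was the highest of the 276 Twi-only regions, and within the HA-Twi titration list it stood above 45.3% of regions and ranked 19. The next region on that side, at 2R:24411712-24411934, was in every list (5.71 to 14.9) and lay 54 bp from an end shared by CG45069 and PIG-Z. Since the gene table has no strand, it was not determined here which end of SerT is the start.

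Rbfox1 had 1 Twi-only region and 2 Grh-only regions, all inside the gene. The Twi-only region at 3L:10525534-10526043 had a fold enrichment of 5.22 in the Twi main list and 2.96 in the HA-Twi titration list. It ranked 6 among the 276 Twi-only regions in the first list and 62 in the second. Of all regions, it stood above 88.8% in the first list and 24.0% in the second. It lay between every-list regions, 44278 bp from the low-coordinate end. The Grh-only regions stood at 3L:10533881-10534254 (2.67 in the Grh main list and 10.2 in the Grh titration list) and at 3L:10562841-10563013 (2.34 and 8.92). They ranked 53 and 93 of 686 Grh-only regions in the titration list. None of the 3 was within 500 bp of a gene end.

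**Figure D4:**
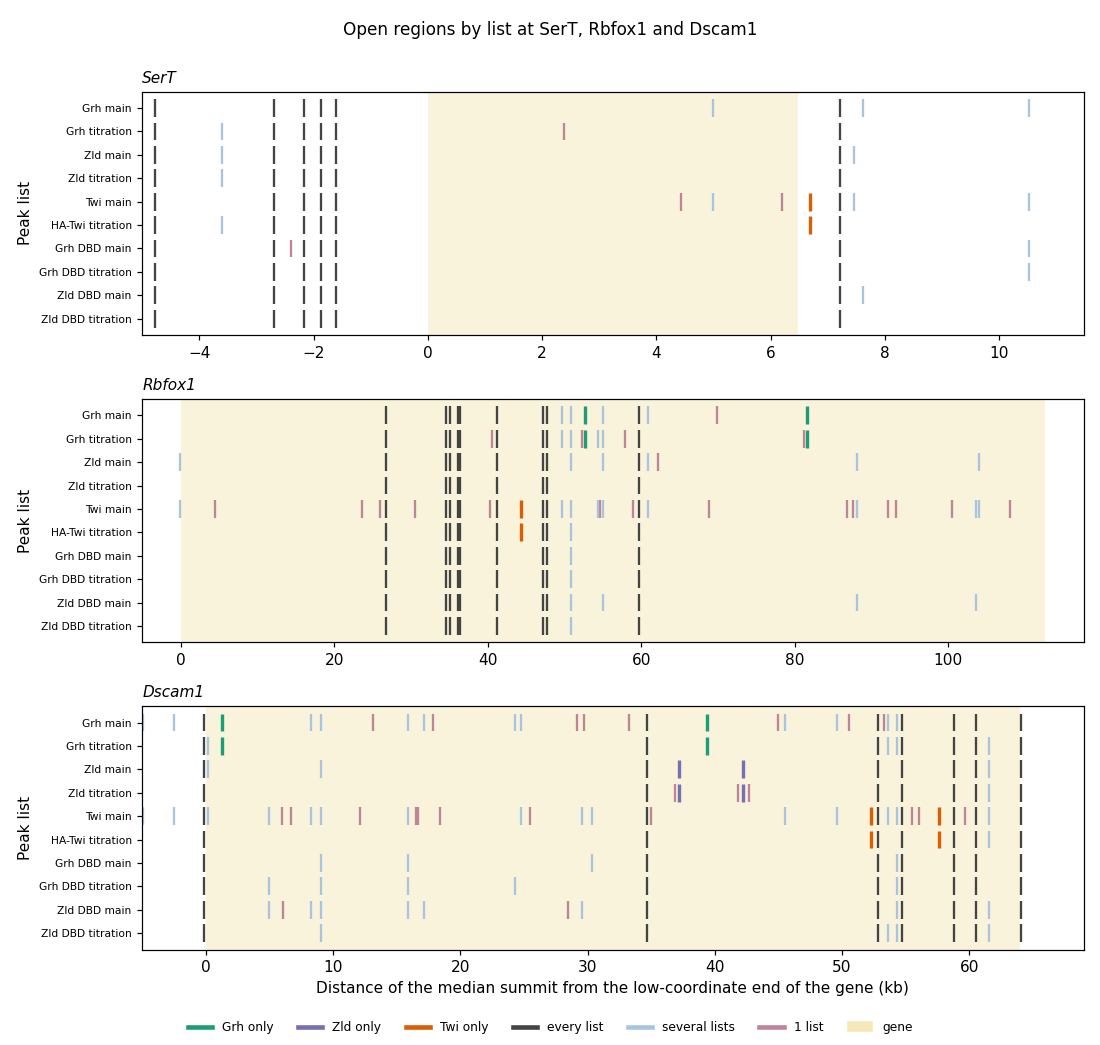
Open regions of SerT, Rbfox1 and Dscam1 in each list (rows), by distance of the median summit from the low-coordinate end of the gene in kb; shading marks the gene and colours mark the class of each region. The Twi-only mark of SerT stands just beyond the gene, 6.81-fold enriched in the Twi main list, and Dscam1 has marks of all 3 factors between the regions of every list.

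Dscam1 encodes a cell-surface receptor of the immunoglobulin superfamily, known for its many splice forms in neuronal self-avoidance and also made by hemocytes. The gene (2R:7317924-7381899) held 54 regions, of which 7 were in every list. These stood at both ends, with summits 171 bp outside the low-coordinate end and 55 bp outside the high-coordinate end, and at 5 places inside. The strongest, at 2R:7352344-7352858, lay near the middle of the gene and ranged from 5.85 in the Grh main list through a median of 12.2 to 34.8 in the HA-Twi titration list. The region at the high-coordinate end, 2R:7381733-7382075, had 7.21 at the lowest, a median of 10.5 and 14.1 at the highest.

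Dscam1 was the only one of the 9 genes with 1-factor regions of all 3 factors. The share was 0.0789% of all protein-coding genes (11 genes) and 0.883% of those of 20 kb or more. Since Dscam1 was chosen for such regions, nothing is read from these shares. The Twi-only regions stood at 2R:7370009-7370281 (fold enrichment 2.05 in the Twi main list and 3.36 in the HA-Twi titration list) and 2R:7375477-7375643 (2.18 and 1.60). The Grh-only regions stood at 2R:7319180-7319408 (1.60 in the Grh main list and 2.27 in the Grh titration list) and 2R:7357265-7357369 (1.77 and 2.52). The Zld-only regions stood at 2R:7355109-7355206 (2.01 in the Zld main list and 2.18 in the Zld titration list) and 2R:7359890-7360420 (2.49 and 3.15). The Grh-only and Zld-only regions lay below the median fold enrichment of both lists that held them. The Twi-only regions lay above the median of the Twi main list (1.76) and below that of the HA-Twi titration list (5.60). When only regions with a −log10 q of at least 10 were used, Dscam1 had 1 Twi-only, 0 Grh-only and 0 Zld-only regions. With every list held to its 25397 regions of lowest q the counts were likewise 1, 0 and 0.

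By median, regions of every list were stronger than those of 1 factor, as they are over the whole genome. Both classes are defined by presence in the lists, so this order is a description without a test. Single regions went the other way. The SerT Twi-only region (6.81) stood above the every-list median of the Twi main list. The Rbfox1 Grh-only regions (10.2 and 8.92) stood above that of the Grh titration list (7.85). In the Twi main list, the 45 every-list regions of the neuronal genes had a median fold enrichment of 5.39, beside 4.89 for all 17039 such regions. The 4 Twi-only regions had a median of 3.70, beside 1.97 for all 276. In the Grh main list the medians were 4.89 for the every-list regions, beside 4.97 over the genome, and 2.06 for the 4 Grh-only regions, beside 1.93. The every-list regions of the 9 genes thus had about the strength of such regions elsewhere. SerT and Rbfox1 gave the 2 high Twi-only values of the Twi main list. In the HA-Twi titration list the Rbfox1 region (2.96) was below a Dscam1 region (3.36). These values took part in the choice of the genes and carry no test.

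**Figure D5:**
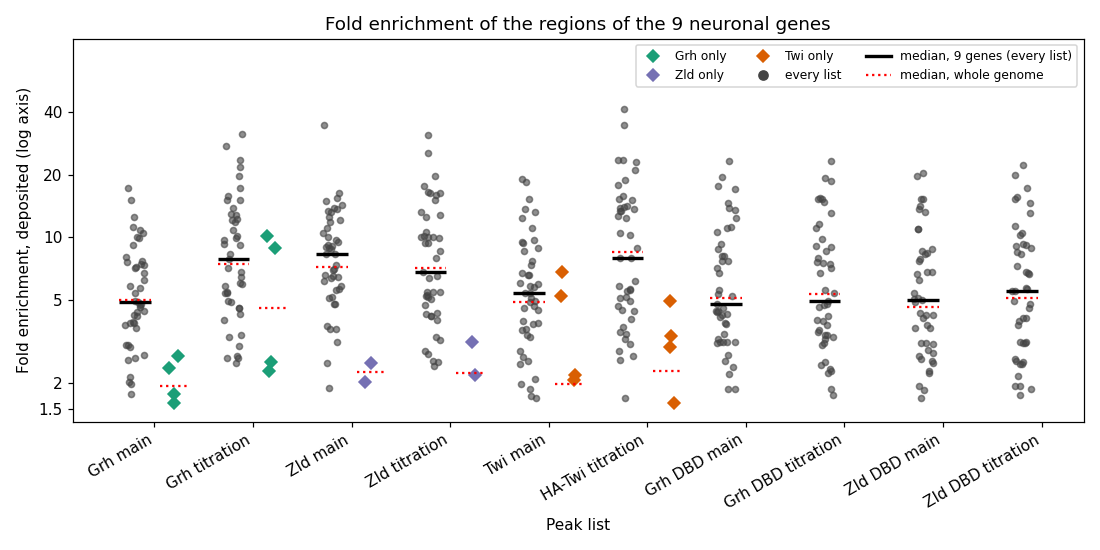
Deposited fold enrichment (log axis) of the regions of the 9 genes in each list; grey points are regions of every list with their median as a black bar, diamonds are regions of 1 factor, and dotted red lines are the medians of the same class over the genome. Every-list regions of the 9 genes centre at 5.39 in the Twi main list, near the genome median of 4.89, and the SerT and Rbfox1 diamonds stand at 6.81 and 5.22.

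The share of main-list regions found again in the titration list of the same factor was close to that of the genome. Of 189 Twi main regions at the 9 genes, 58 (30.7%) were in the HA-Twi titration list, beside 32.3% of all Twi main regions. The shares were 56.1% beside 57.3% for Grh and 70.8% beside 74.7% for Zld. The titration lists were also compared among themselves. At the 9 genes, 29 of 89 regions of the Grh titration list (32.6%) were absent from the titration lists of Zld and HA-Twi, beside 21.2% over the genome. All 9 genes had at least 1 of them, beside 46.9% of all protein-coding genes and 76.9% of those of 20 kb or more. The counts were 12 of 72 (16.7%, beside 10.5% over the genome) for the Zld titration list and 4 of 61 (6.56%, beside 5.08%) for the HA-Twi titration list. The 9 genes were chosen on these lists, so these shares carry no test. Rbfox1 held 9 of the 29, with a median fold enrichment of 3.61 and 10.2 at the highest. Of all regions of the 9 genes, 85 (35.3%) were in a single list, against 39.8% over the genome. The Twi main list held 49 of these 85 (57.6%), against 69.5% of the single-list regions of the genome.

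The other neuronal genes were 57 matched genes in 5 lists by role. Only their window count of every-list regions lay near the share of all protein-coding genes. Of the 57, 46 (80.7%) had such a region in their windows, beside 80.5% of all protein-coding genes and 87.9% of those of 20 kb or more. Inside the gene 29 had one (31.8% and 71.7%). Within 500 bp of an end 22 had one, which is below both shares (56.4% and 60.9%). At that distance the 9 genes counted 4 (elav, Syt1, brp and Dscam1), beside 56.4% of all protein-coding genes. Of the 57, 38 were 20 kb or longer. Twi-only regions occurred at 2 of the 57 (pum and Ten-m). Grh-only regions occurred at 9 (Ten-a, Ten-m, pum, mub, ps, cpx, NaCP60E, Vmat and fra) and Zld-only regions at 6 (Appl, robo2, Ten-m, VAChT, ChAT and Tdc2). The shares over all protein-coding genes were 3.76% for Twi-only, 9.05% for Grh-only and 4.22% for Zld-only regions, and over those of 20 kb or more 12.3%, 25.6% and 12.2%. All 57 had a region in at least 1 list, beside 96.6% of all protein-coding genes. By role, a region of every list was present at 8 of 10 RNA-binding and other pan-neuronal genes, 8 of 11 synaptic vesicle and release genes, 9 of 11 ion channel genes, 9 of 10 transmitter genes and 12 of 15 adhesion genes. SerT was the only gene of its role list with a Twi-only region, but it was chosen for that region, so nothing is read from this.

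The 5 kb limit decided single regions. The Syt1 region near daw was the closest case, since its summit lay on the limit in the Twi main list (fold enrichment 13.2) and 1 bp beyond it in the Zld DBD main list (20.4). It is counted as a region of Syt1 because at least 1 summit was inside. For brp the nearest region left out, at 2R:9546476-9546704, had a summit 1 bp beyond the limit in the Grh DBD main list (2.25).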

How the data were processed

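The values were 10 deposited narrowPeak lists in dm6 coordinates. For each peak the authors list its fold enrichment over background and a −log10 q, both used here, and a score, not used; the smallest −log10 q is 1.30. Per the submitters' processing notes, Bowtie2, MACS2, featureCounts, DESeq2 and deepTools 3.5.1 were used; their settings, their roles and any shift for transposase cuts were not given in the sources used here. Per the labels, 8 lists pool several libraries. For the 2 DBD titration lists the labels name no libraries, and these lists hold no summit, so window midpoints were used.

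Rows of 1 peak were joined, regions overlapping by at least 1 bp over the lists were merged, and genes came from the RefSeq table of Release 6, without strand. Merging was tested on 2400 simulated regions and gave 0 differences from direct comparison. The 9 genes and the role lists were chosen with earlier results of these data known. All 9 genes were named, with every 1-factor region and each gene's strongest every-list region by median, and the role-list genes with a 1-factor region or with none in any list; other regions and genes were chosen after their values were seen. Of 58 other listed genes, 57 matched. No genome sequence was used, so planned motif counts were not made, and distance to either gene end replaced start sites. Alternatives changed strength, list length, overlap, window and lists required. Computation ran in Python 3.11.15 with pandas 2.3.3 and numpy 2.4.6, and plots in matplotlib 3.10.9.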

Additional observations from a re-analysis of the deposited data

How the results depend on the processing

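Of 64 alternative values of the 7 main counts, 49 were within 1.5 times the reported count. With gene bodies alone, 24 regions of every list were counted at 5 genes, 1 of them with such a region at an end. At a −log10 q of at least 10, 2 Grh-only and 0 Zld-only regions were found. With 10 kb flanks there were 4 Zld-only regions, and 5 genes had a 1-factor region; the same number of regions per list also gave 5 genes. Main lists alone gave 19 Grh-only, 8 Zld-only and 72 Twi-only regions at 8 genes. Titration lists alone gave 29 Grh-only, 12 Zld-only and 4 Twi-only regions at 9 genes. Both settings require fewer lists to agree, and the lists differ in length. The part of each in these counts was not tested. SerT had a Twi-only region in 8 of 9 alternatives and none with gene bodies alone, outside which the region lies. Comparing list regions directly, added after the data were seen, changed none of the 6 main counts it was run for. No paired analysis was possible because no list is labelled as that of 1 library and no test was run. Depth is unknown, so absence from a list is not absence of accessibility.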

Other observations

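Among the other neuronal genes, pum and Ten-m carried the most regions. pum, an RNA-binding translational repressor gene, held 134 regions, 34 of them in every list, and its Twi-only region at 3R:9152429-9152746 had a fold enrichment of 4.13 in the Twi main list and 8.76 in the HA-Twi titration list. Ten-m, a teneurin gene of synaptic partner matching, held 145 regions, and like Dscam1 it had 1-factor regions of all 3 factors (2 Twi-only, 2 Grh-only and 1 Zld-only). Unlike those of Dscam1, which were in no DBD list, 1 of its Twi-only regions (3L:22325798-22326125) was in 3 DBD lists. Ten-m is 114820 bp long, and all 3 kinds occurred at 0.883% of genes of 20 kb or more. Leaving out the 9 genes, the strongest Grh-only regions of the role lists in the Grh titration list were in Ten-a (10.8 and 8.07), pum (7.97) and near NaCP60E (7.82). ChAT and VAChT, which share the cholinergic locus, shared 1 Zld-only region at 3R:18723708-18723922 (2.84 in the Zld main list and 3.74 in the Zld titration list). By number of lists, bru3 and cac had the fewest, with regions in 1 list each, and fne, Sh and Nlg1 had regions in 4 lists each. None of the 5 could therefore have a region of every list. At most 1 list had a region for 5.41% of all protein-coding genes. Few lists did not always mean few regions, since Nlg1 held 17.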
